A study of Mus musculus with 60 samples.

Results

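The organoids of one liver at passage 4 were compared with those of 2 livers at passage 3, each organoid being a separate RNA-seq library. Members were taken by their labels and by the passage numbers of the study's methods. These were the 12 organoids of Set4 at passage 4, the 10 of Set2 at passage 3 and the 5 of Set3 at passage 3, 27 of the 42 single organoids and of the 60 samples in the series. The study left out 5 further organoids of these sets, with totals of 666660 to 1152914 counts, and they were left out here. The organoids grew from cholangiocytes, the epithelial cells that line bile ducts, of male C57BL/6N mice aged 3 to 4 months, 1 mouse per set. All cultures were started in Matrigel domes, broken into fragments and then kept for further passages in dilute Matrigel on a shaker, from which single organoids without signs of cell death were picked. Passage, mouse and culture therefore cannot be told apart in this comparison, and P-values over organoids measure only the spread between organoids of these 3 cultures.

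Liver ductal organoids are grown from fragments that are broken up and reseeded at each passage, and they keep ductal keratins while the culture medium drives proliferation. Inducible immune programmes of epithelium recur in these results. Interferon-stimulated genes are switched on when type I or type III interferon activates a transcription factor complex that includes STAT2 and IRF9 and binds a DNA element called ISRE. They encode sensors of foreign RNA and antiviral effectors. NF-kB is a transcription factor that is released after inflammatory signals and switches on chemokines such as Cxcl2 and Ccl2.

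The libraries held 1180937 to 4522826 counts in Set2, 1706346 to 3488757 in Set3 and 1059002 to 7383116 in Set4. All 8 cholangiocyte markers checked, among them Epcam, Krt7, Krt19, Sox9, Spp1 and Cdh1, had counts in all 27 organoids. Of the hepatocyte markers, Apoa1 had counts in 6 organoids and Cps1 and Cyp3a11 in 1 each, whereas Ttr and Hnf4a had counts in all 27. Summed over each list, in CPM (counts scaled to library size), macrophage and lymphocyte markers lay between 1.45 and 7.87, mesenchymal markers between 0 and 3.28 and endothelial markers between 11.6 and 24.9. The endothelial sum was mostly Egfl7, the only one of that list tested (0.41, SE 0.16, adj. P-value 0.0602), whereas Pecam1 reached at most 1.99 CPM. Ptprc, which marks all white blood cells, reached at most 1.10 CPM. Organoids 2 and 6 of Set2 had the highest shares of counts from ribosomal protein genes in their set, 21.9% and 22.7%, and the lowest totals, 1298591 and 1180937. Organoid 11 of Set2 was close to them in this share, at 21.1%, with a total of 3615164. Since each organoid is a small bulk sample, fewer cells of a type and less RNA per cell cannot be told apart.

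Of 12337 genes tested by edgeR's quasi-likelihood test with Benjamini-Hochberg adjustment, 2916 (23.6%) were called between Set4 and the pooled passage 3 organoids. The direction was the same against Set2 and against Set3 for 2891 of them (23.4%). Of these, 1209 (9.8%) were higher and 1682 (13.6%) lower in Set4. A smaller group of 709 genes (5.75%) was called pooled and also against each set in a fit with 1 term per set, 220 (1.78%) higher and 489 (3.96%) lower. Large changes were mostly decreases, with 332 genes lower and 80 higher by at least 1 on the log2 scale. The median over all genes was -0.04. Against Set2 alone 6.79% of genes were higher and 8.92% lower, and against Set3 alone 4.75% were higher and 9.86% lower. Between Set2 and Set3, the 2 mice of equal passage, 175 genes (1.42%) were called, 0.64% higher and 0.778% lower in Set2. When the counts were summed to 1 library per set, leaving 1 set against 2, 34 genes (0.276%) were called, 15 (0.122%) higher and 19 (0.154%) lower. Counts of calls also moved with single organoids. The 220 and 489 genes called against each set became 60 and 227 without Set3 organoid 3, the lowest counts. The highest counts were 414 genes higher, without Set4 organoid 7, and 726 lower, without Set2 organoid 11. Changes of more than 1.5 times in at least 1 of these counts were also seen without Set3 organoids 1 (381 higher), 4 (104 and 295) or 6 (81 and 290), without Set2 organoids 2 (340 higher) or 11 (401 higher), and without Set4 organoids 1 (109 and 275), 2 (125 and 314) or 13 (144 and 322).

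**Figure D1:**
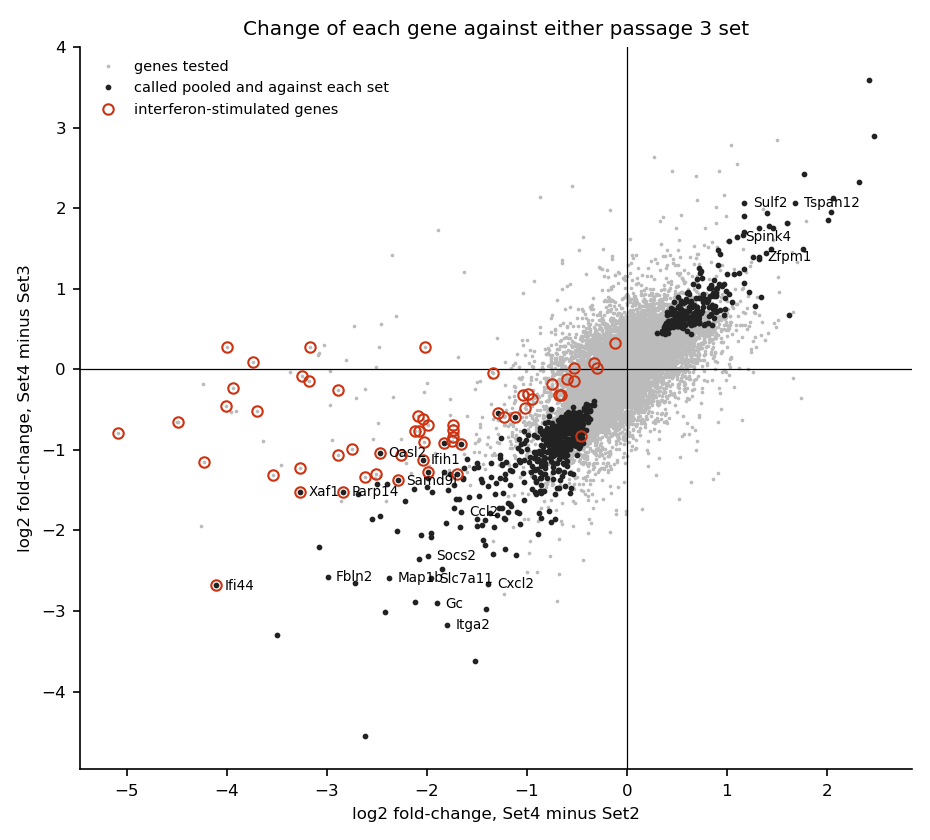
Log2 fold-change of each of the 12337 genes in Set4 against Set2 (horizontal axis) and against Set3 (vertical axis), with the 709 genes called pooled and against each set in black and the 58 interferon-stimulated genes ringed in red. Both axes share the Set4 organoids. Many rings lie far to the left and close to the horizontal zero line, that is, lower than in Set2 by much more than in Set3.

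The widest decrease was in interferon-stimulated genes. Of 77 listed, 58 were tested and 48 (82.8%) were lower in Set4, against 13.6% of all genes, and the remaining 10 were not called. Their median log2 fold-change was -1.73, against -0.04 for all genes. Most of this was a difference from Set2. Against Set2 alone the median was -2.03 and 52 of 58 were called lower, where 8.92% of all genes were, and against Set3 alone it was -0.63 and 13 were, where 9.86% of all genes were. Between the 2 passage 3 sets, 18 of the 58 were called higher in Set2, where 0.64% of all genes were. With 1 summed library per set none of the 58 passed in edgeR (smallest adj. P-value 0.0511), and 45 were lower at an unadjusted P-value below 0.05.

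The mean log2 CPM of the 58 genes ran from 3.99 to 6.32 in Set2 (median 4.44), from 3.48 to 4.12 in Set3 (median 3.64) and from 2.86 to 3.54 in Set4 (median 3.13). Set2 and Set4 did not overlap, and Set3 touched Set4 at its lower end through 1 of its 5 organoids, number 5. The top of Set2 was set by organoids 4 and 7, at 6.32 and 5.88. Leaving out any 1 of the 27 organoids gave 43 to 50 genes called lower. The ribosomal share, which differed in the opposite direction, had medians of 16.8% in Set2, 15.8% in Set3 and 20.9% in Set4, and its part in the result was not tested. Exonic length moved with the calls as well. With genes divided into 4 groups of near equal size by summed exonic length, 18.6% of the shortest group were called higher and 6.03% lower in Set4, and 2.21% of the longest group were higher and 25.3% lower. The interferon-stimulated genes had a median of 3702 bases, against 4018 for all genes, and 7 of the 58 were in the longest group. The part of length in the calls was not tested.

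**Figure D2:**
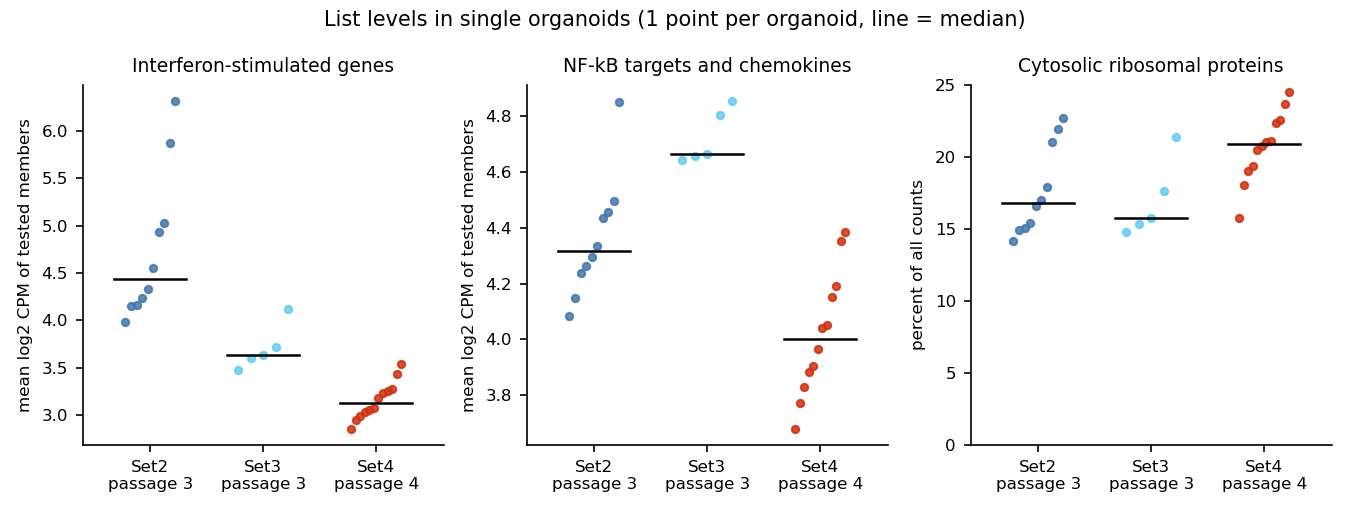
Mean log2 CPM of the 58 interferon-stimulated genes (left) and the 41 NF-kB targets and chemokines (middle), and the percent of counts from cytosolic ribosomal protein genes (right), with 1 point per organoid and a line at the median of each set. Set4 lies lowest in the left panel, where it does not overlap Set2, and its median is highest in the right panel at 20.9%.

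Among these genes, 12 were called lower against each set, where 3.96% of all genes were. They included the transcription factor subunits Stat2 and Irf9, the double-stranded RNA sensors and effectors Ifih1, Eif2ak2 and Oas1a, and Oasl2, Ifi44, Xaf1, Samd9l, Parp9 and Parp14. Promoter windows are shown for some genes of the list in which a match to ISRE, the DNA element described above, was found. Each window spans 250 bases before to 50 bases after a RefSeq start site on GRCm38.p6, is read 5′ to 3′ on the gene's strand, and has matches to ISRE (2 copies of GAAA with any 2 bases between them, or the same of TTTC for the other strand) in capitals. The windows of Stat2 (chr10:128270248-128270547, plus strand), Ifih1 (chr2:62646206-62646505, minus strand) and one of the windows of Ifi203 (chr1:173942443-173942742, minus strand) each hold 1 match, with its first base at -222, 33 and -35 relative to the start site.
Stat2: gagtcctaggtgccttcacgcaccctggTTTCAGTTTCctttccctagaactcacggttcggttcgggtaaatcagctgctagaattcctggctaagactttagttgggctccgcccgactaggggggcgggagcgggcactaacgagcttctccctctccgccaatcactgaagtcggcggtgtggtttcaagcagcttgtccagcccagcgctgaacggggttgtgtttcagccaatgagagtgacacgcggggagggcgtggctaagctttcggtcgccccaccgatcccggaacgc
Ifih1: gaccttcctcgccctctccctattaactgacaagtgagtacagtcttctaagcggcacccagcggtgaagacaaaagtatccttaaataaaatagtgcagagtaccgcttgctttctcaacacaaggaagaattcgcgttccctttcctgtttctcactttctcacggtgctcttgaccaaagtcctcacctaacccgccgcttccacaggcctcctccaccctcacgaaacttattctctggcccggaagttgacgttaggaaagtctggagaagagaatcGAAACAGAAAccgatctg
Ifi203: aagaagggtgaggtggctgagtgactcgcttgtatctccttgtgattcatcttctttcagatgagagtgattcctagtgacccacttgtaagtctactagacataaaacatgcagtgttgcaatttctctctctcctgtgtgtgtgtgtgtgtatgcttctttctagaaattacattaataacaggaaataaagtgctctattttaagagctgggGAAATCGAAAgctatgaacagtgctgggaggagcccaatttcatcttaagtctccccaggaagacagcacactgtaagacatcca
Of 32851 promoter windows in the table, 3.44% held the motif. By gene, it was found in 310 of the 8717 tested genes that had a window (3.56%), and in 27 of 44 interferon-stimulated genes (61.4%). It was found in 19 of 35 list members called lower (54.3%) and in 8 of 9 not called (88.9%). No match was found in the windows of Ifi44, Xaf1, Oasl2 and Samd9l, and a match is a description of the letters, not a measured binding site.

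Ifi44 (ENSMUSG00000028037, chr3:151730922-151749960, minus strand), an interferon-induced cytoplasmic protein, gave the largest decrease among genes called against each set at an average log2 CPM of at least 4. Its values in Set2 ran from 9.38 to 122 CPM with a median of 22.8. In Set3 they were 9.25, 45.4, 7.13, 6.00 and 9.41 CPM, and in Set4 they ran from 0.475 to 5.34 CPM with a median of 2.13. Every Set4 organoid was thus below every passage 3 organoid, a separation found in this direction for 6 genes (0.0486% of those tested). The opposite separation was found for 1 gene (0.00811%), Gpr137 (0.68, adj. P-value 0.000208). For Ifi44, organoid 3 of Set3 was well above the other 4. Its log2 fold-change was -3.77 (SE 0.48, adj. P-value 6.97e-06), with -4.11 against Set2 and -2.68 against Set3.

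Xaf1 (ENSMUSG00000040483, chr11:72301629-72313733, plus strand), an interferon-induced factor that counteracts an inhibitor of apoptosis, was separated in the same way. Set2 ran from 11.9 to 217 CPM with a median of 34.2. Set3 gave 13.4, 32.4, 15.9, 11.6 and 13.6 CPM, and Set4 3.13 to 9.30 CPM with a median of 5.58. Its log2 fold-change was -2.88 (SE 0.43, adj. P-value 4.07e-05), against Set3 alone -1.52. Usp18, which dampens the interferon receptor, was the third member of the list without overlap, and the others among the 6 were Ifi27l2b, Grb10 and Lss.

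Oasl2, a 2′-5′-oligoadenylate synthetase-like protein, showed how far the passage 3 sets differed. Its values were 17.7 to 107 CPM in Set2 (median 34.2), 12.2, 30.3, 14.3, 13.1 and 18.8 CPM in Set3, and 2.57 to 15.04 CPM in Set4 (median 8.17). Set2 lay above Set4 throughout, whereas Set3 overlapped it. Set2 was higher than Set3 by 1.43 on the log2 scale (SE 0.35, adj. P-value 0.0313). The genes with the largest pooled changes in the list, Ifi203 (-4.53) and Ifi204 (-3.95), which encode DNA-binding proteins of 1 gene cluster, were called against Set2 and not against Set3. Ifi203 was -5.09 against Set2 (adj. P-value 3.33e-07) and -0.79 against Set3 (adj. P-value 0.566), with 1.05 to 2.16 CPM in Set3 and 0.316 to 2.57 in Set4. The members of this cluster are close paralogs, as are the Oas genes, and 3′-end reads can be split between them. Mx2, an antiviral GTPase, had the same form at -4.22 and -1.15.

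NF-kB targets and epithelial chemokines were lower too, but there the median difference from Set3 was the larger one. Of 41 tested, 17 (41.5%) were called lower in the pooled comparison and 1, Bcl3, higher, against 13.6% and 9.8% of all genes. The pooled median was -0.54, against -0.04 for all genes. The median was -0.36 against Set2 and -0.67 against Set3. Called lower against each set were 7 genes: the chemokines Cxcl2, Cxcl5, Ccl2 and Ccl7, the macrophage growth factor Csf1, the adhesion molecule Vcam1, and Tnfaip2. Of all genes, 3.96% were called lower against each set. The negative feedback inhibitor Nfkbia and the subunit Nfkb1 were lower by 0.55 and 0.67 on the log2 scale. Of 19 listed macrophage and lymphocyte markers 2 passed the filter. One of them, Csf1r, the receptor for Csf1, was lower in Set4 (-1.37, SE 0.35, adj. P-value 0.00578), with medians of 1.79, 2.61 and 0.717 CPM in Set2, Set3 and Set4. The other was not called. Cd68, a macrophage marker that was also tested, had medians of 1.87, 1.11 and 1.52 CPM (not after TMM) in the same order. The part of Csf1r in the decrease was not tested.

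Cxcl2 (ENSMUSG00000058427, chr5:90903871-90905938, plus strand) attracts neutrophils and is a classical NF-kB target. Its promoter window (chr5:90903649-90903948, plus strand) holds 2 overlapping matches to the NF-kB consensus, whose first bases lie at -97 and -96. Matches were searched on both strands and are in capitals.
Cxcl2: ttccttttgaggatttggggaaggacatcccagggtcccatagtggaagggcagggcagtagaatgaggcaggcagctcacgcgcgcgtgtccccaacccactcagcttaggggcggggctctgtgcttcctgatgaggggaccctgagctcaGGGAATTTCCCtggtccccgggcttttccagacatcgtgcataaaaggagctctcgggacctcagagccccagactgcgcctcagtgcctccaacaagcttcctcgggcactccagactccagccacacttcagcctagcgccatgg
This consensus was present in 8.46% of all windows, in 12.4% of tested genes with a window, and in 16 of 28 such genes of the list (57.1%), 6 of 9 called lower and 10 of 19 not called lower. Cxcl2 ran from 36.4 to 296 CPM in Set2 (median 52.2) and was 219, 258, 233, 198 and 190 CPM in Set3, against 15.3 to 77.1 CPM in Set4 (median 27.2). Set3 was above all of Set4. In Set2 organoids 4 and 7, the same 2 that had the most interferon-stimulated RNA, reached 296 and 207 CPM, while the other 8 stood between 36.4 and 56.7 CPM and overlapped Set4. The log2 fold-change was -1.95 (SE 0.35, adj. P-value 0.000343).

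Ccl2 (chr11:82035571-82037453, plus strand), which attracts monocytes, was at 15.1 to 64.7 CPM in Set2, 37.6, 23.4, 50.5, 36.7 and 20.9 CPM in Set3 and 5.16 to 34.9 CPM in Set4. In Set4, 11 of 12 organoids were below every passage 3 organoid. It fell by 1.69 on the log2 scale (SE 0.26, adj. P-value 4.54e-05), and its log2 fold-change with 1 library per set was -1.78. Nos2, the inducible nitric oxide synthase, gave the steepest fold of the gut-like and secretory list at -3.58 (SE 0.47, adj. P-value 8.91e-06), with 2.64 to 26.2 CPM in Set2, 19.4 to 67.7 in Set3 and 0 to 3.04 in Set4.

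Among genes called against each set at an average log2 CPM of at least 4, Fbln2, Map1b, Itga2, Gc and Slc7a11 had the largest decreases outside these lists. Fbln2 (chr6:91212455-91272540, plus strand) encodes the matrix protein fibulin-2. It was at 9.46 to 75.8 CPM in Set2 (median 45.5), at 27.4, 15.1, 26.3, 27.9 and 63.2 CPM in Set3 and at 2.57 to 11.3 CPM in Set4 (median 4.38). In Set4, 10 of 12 organoids were below all of passage 3, and the log2 fold-change was -2.86 (SE 0.31, adj. P-value 1.10e-06). It was of similar size against either set, at -2.99 and -2.58, and with 1 library per set it was -2.96. Map1b (chr13:99421446-99516540), a microtubule-binding protein, was alike at -2.38 and -2.59, with 11.9 to 97.4 CPM in Set2, 20.8 to 90.8 in Set3 and 2.95 to 13.5 in Set4.

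Itga2 (chr13:114833081-114932100, minus strand), the alpha 2 subunit of a collagen receptor, had 5.47 to 47.6 CPM in Set2, 46.2, 51.1, 63.1, 32.8 and 78.9 CPM in Set3 and 3.63 to 8.56 CPM in Set4. All of Set3 lay above all of Set4, while Set2 overlapped Set4. The change was -3.17 against Set3 and -1.80 against Set2, and this difference passed its own test (-1.37 for Set2 minus Set3, SE 0.31, adj. P-value 0.0183). The alpha 1 subunit Itga1 followed the same order (-2.88 against Set3 and -0.70 against Set2). Of 38 integrin, laminin, collagen and protease genes tested, 11 (28.9%) were lower and 2 (5.26%) higher, against 13.6% and 9.8% of all genes. Called lower were 6 against Set2, 10 against Set3 and 3 against each, where 8.92%, 9.86% and 3.96% of all genes were.

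Gc (chr5:89417522-89457898, minus strand) encodes the vitamin D-binding protein, which hepatocytes secrete into plasma. It was at 89.0 to 572 CPM in Set2 (median 180), at 319, 408, 428, 352 and 546 CPM in Set3 and at 20.7 to 179 CPM in Set4 (median 41.8). In Set4, 10 of 12 organoids were below all of passage 3, and the log2 fold-change was -2.32 (SE 0.33, adj. P-value 1.88e-05). Of 22 secreted plasma proteins tested, 11 (50%) were lower, among them Hp, Trf, Cp and C3, and 1 was higher, against 13.6% and 9.8% of all genes. More of them were called lower against Set3 (11, median -0.996) than against Set2 (5, median -0.54), and 3 were called against each. Of all genes, 9.86%, 8.92% and 3.96% were called lower in these comparisons. The exception was Ttr, the thyroid hormone carrier, with medians of 804, 481 and 1415 CPM in Set2, Set3 and Set4 (0.85, SE 0.25, adj. P-value 0.0136). Alb was called lower but was low throughout, at most 7.29 CPM.

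Slc7a11 (chr3:49892526-50443614, minus strand), the cystine transporter that supplies glutathione synthesis, was at 29.9 to 111 CPM in Set2, 22.4, 147, 24.7, 133 and 87.3 CPM in Set3 and 6.95 to 24.04 CPM in Set4. In Set3, organoids 1 and 4 were far below the other 3, and organoid 1 overlapped Set4. The fold was -2.20 (SE 0.30, adj. P-value 1.09e-05). Slc7a11 is induced by ATF4, the transcription factor of the integrated stress response, and by NRF2. Atf4 itself was lower by 0.72, and of its targets Chac1 (-1.68), Trib3 (-1.50), Mthfd2 (-1.04), Ddit3 (-0.90) and Asns (-0.51) were lower too. Not all genes of this response went this way, as Phgdh, named below, was called higher. Of 35 Nrf2 antioxidant genes tested, 2 (5.71%) were higher and 3 (8.57%) lower. The part of ATF4 or NRF2 in the decrease of Slc7a11 was not tested. Of 51 genes of the unfolded protein and integrated stress responses, 16 (31.4%) were lower and 6 (11.8%) higher, against 13.6% and 9.8% of all genes. Against Set2 alone 19 of the 51 were called lower, where 8.92% of all genes were, with a median of -0.21. Against Set3 alone 5 of the 51 were, a share close to the 9.86% of all genes, with a median of -0.09. The 6 higher ones were Sdf2l1, Manf, Phgdh, Dnajb11, Calr and Edem1, of which Phgdh is a serine synthesis enzyme.

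Sdf2l1 (chr16:17130138-17132383, minus strand), a partner of the chaperone BiP, had the smallest P-value of the higher genes at an average log2 CPM of at least 4. It was at 11.9 to 55.7 CPM in Set2 (median 26.6), at 39.4, 20.2, 21.4, 33.2 and 24.6 CPM in Set3 and at 45.3 to 104 CPM in Set4 (median 70.4). In Set4, 10 of 12 organoids were above all of passage 3. The log2 fold-change was 1.34 (SE 0.17, adj. P-value 6.97e-06), and with 1 library per set it was 1.36. Pdx1, a transcription factor of pancreas and duodenum named here after its values were seen, had a smaller P-value at a lower level (1.46, SE 0.19), with 2.47 to 10.4 CPM in passage 3 and 9.32 to 28.8 CPM in Set4. Manf, a secreted stress protein of the same compartment, was higher by 0.69 and Calr, the chaperone calreticulin, by 0.49.

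Under the same conditions the largest increase was that of Tspan12 (chr6:21771395-21852515, minus strand), a tetraspanin that serves as a co-receptor for norrin and Frizzled-4 in beta-catenin signalling. It was at 4.09 to 30.5 CPM in Set2 (median 9.06), at 8.95, 6.48, 12.1, 8.46 and 6.27 CPM in Set3 and at 14.7 to 73.0 CPM in Set4 (median 29.5). All of Set4 was above all of Set3, whereas 3 organoids of Set2 overlapped it. The log2 fold-change was 1.80 (SE 0.27, adj. P-value 3.31e-05). Sulf2 (chr2:166073089-166155663, minus strand), a sulfatase that edits heparan sulfate and so alters growth factor binding, was at 5.49 to 22.1 CPM in Set2, 7.46, 2.16, 8.77, 8.11 and 5.23 CPM in Set3 and 14.6 to 41.8 CPM in Set4. It was higher by 1.42 (SE 0.22, adj. P-value 4.68e-05).

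Among Wnt pathway genes, 4 of 30 tested (13.3%) were higher and 1 (3.33%), Apc, lower, against 9.8% and 13.6% of all genes. The 4 were the target Sp5 (1.56, SE 0.26, adj. P-value 0.000123), the stem cell factor Ascl2 (1.05), the beta-catenin partner Tcf7l2 (0.97) and the feedback inhibitor Axin2 (0.56). Sp5 was at 1.94 to 6.38 CPM in Set2, 2.09 to 3.96 in Set3 and 3.72 to 21.2 in Set4. Lgr5, a marker of Wnt-driven stem cells, was low in all sets, with medians of 3.07, 1.06 and 2.31 CPM, and was not called (-0.41, SE 0.40, adj. P-value 0.455). Tspan8, a tetraspanin of secretory epithelia, was at 72.6 to 181 CPM in Set2, 90.0 to 171 in Set3 and 154 to 344 in Set4, higher by 1.00 (SE 0.14, adj. P-value 2.05e-05). Id1, a BMP target, was higher by 0.79 (SE 0.12, adj. P-value 4.54e-05), and 11 of 12 Set4 organoids were above all of passage 3.

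**Figure D3:**
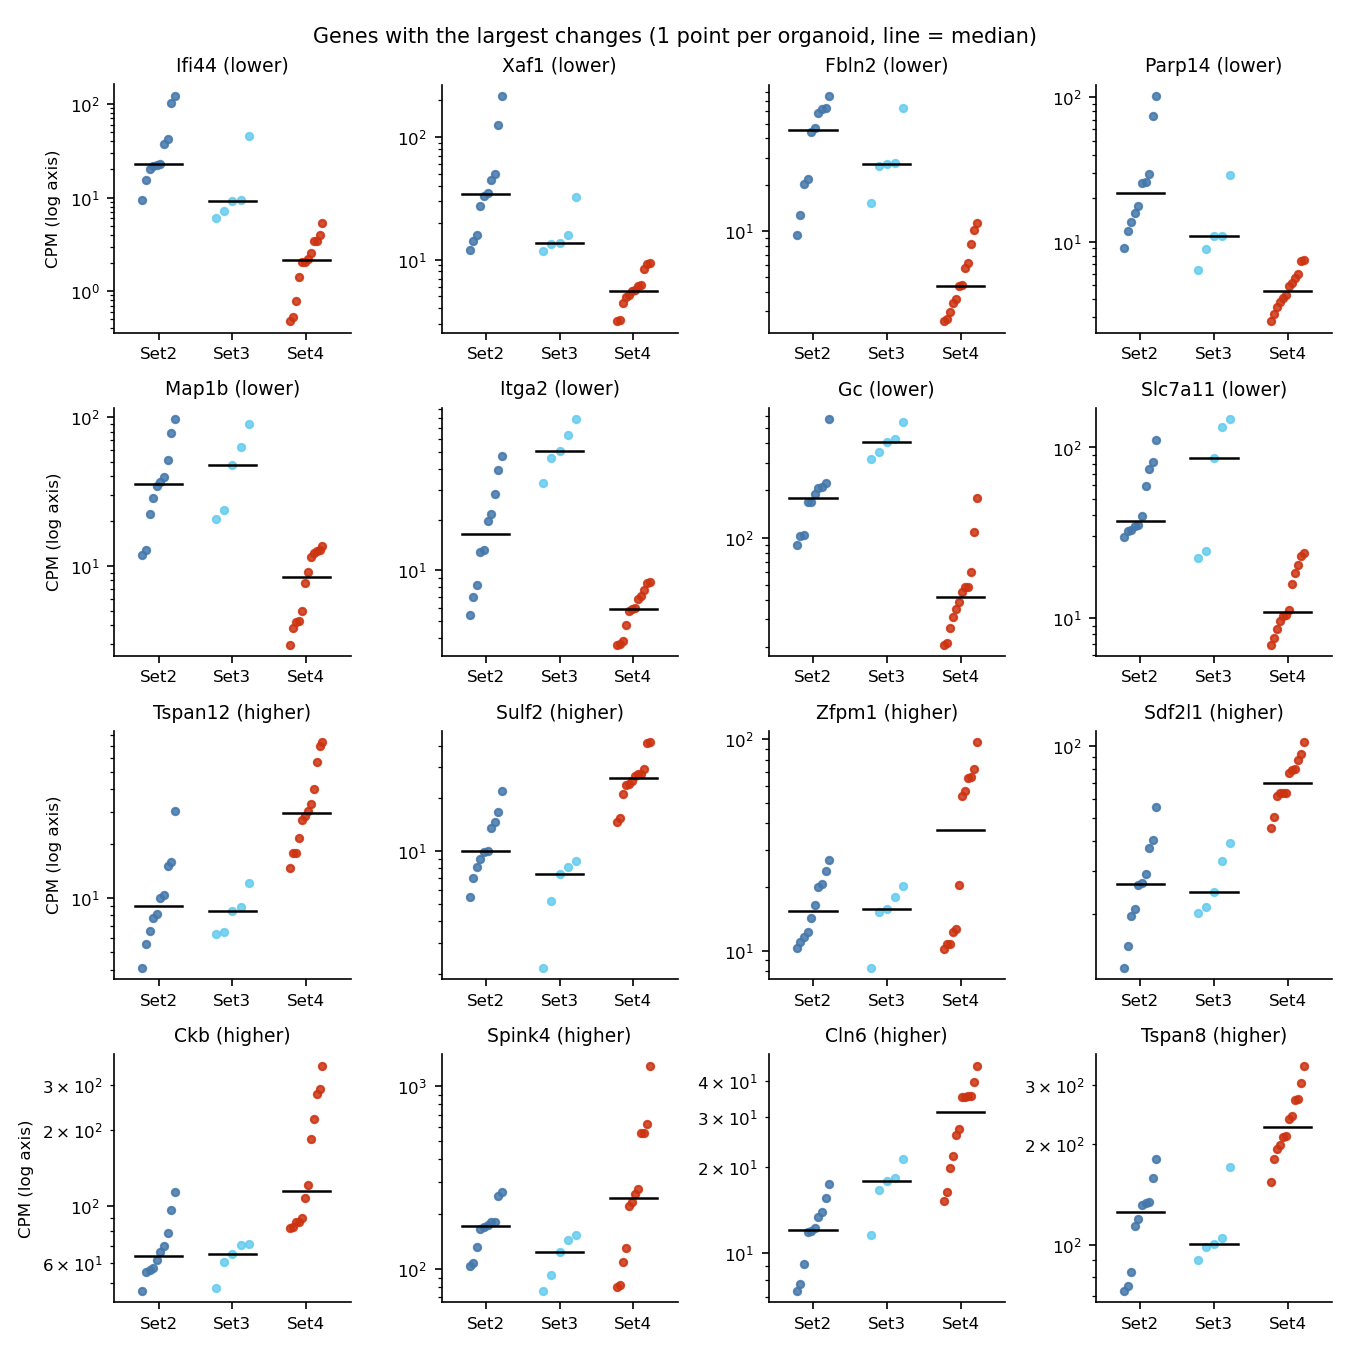
CPM on a log axis of the 8 genes with the largest decrease (upper 2 rows) and the 8 with the largest increase (lower 2 rows) among genes called against each set at an average log2 CPM of at least 4, with 1 point per organoid and a line at the median. For Ifi44 and Xaf1 no Set4 point reaches a passage 3 point, while for Zfpm1 and Ckb 6 Set4 points rise and the other 6 overlap the passage 3 range.

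Several of the higher genes were raised in only some Set4 organoids. Zfpm1 (chr8:122282141-122337251, plus strand), a cofactor of GATA transcription factors also called FOG1, was at 8.28 to 26.9 CPM in passage 3. In Set4 organoids 1, 2, 3, 7, 9 and 14 it was at 96.8, 57.0, 72.3, 54.1, 66.1 and 65.5 CPM, and in organoids 5, 6, 11, 12, 13 and 15 at 10.2, 12.3, 10.7, 10.8, 20.4 and 12.7 CPM. The values fell in 2 groups with no organoid between 20.4 and 54.1 CPM. Ckb, the brain-type creatine kinase, was above all of passage 3 in the same 6 organoids, at 358, 288, 221, 121, 278 and 185 CPM, and at 82.2 to 108 CPM in the other 6. Cdx2, the transcription factor that specifies intestinal epithelium, was at 18.2, 12.4, 9.59, 9.44, 14.8 and 15.2 CPM in those 6 and at 0 to 3.94 CPM in the other 6, with 0 to 7.91 CPM in passage 3. The pooled log2 fold-changes of Zfpm1, Ckb and Cdx2 were 1.35 (SE 0.31, adj. P-value 0.00281), 1.31 (SE 0.21, 0.000118) and 1.81 (SE 0.44, 0.00472). They are averages over organoids with and without the higher level. The 2 groups of organoids were seen in these values and were not compared for other genes.

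Spink4, a protease inhibitor of goblet cells, spread over other organoids, with 1301 CPM in Set4 organoid 15, 620 in 14, 559 in 2 and 556 in 13, but 79.8 and 82.4 CPM in 5 and 6. Its passage 3 values were 75.8 to 265 CPM and its log2 fold-change 1.26 (SE 0.31, adj. P-value 0.00489). Dmbt1, a mucosal scavenger protein, and Reg1, a regenerating protein of the gut, rested on fewer organoids still. Dmbt1 was at 327 CPM in Set4 organoid 15 and at 5.31 to 24.3 CPM in the other 11, with 5.79 to 18.2 CPM in passage 3. Its call (1.68, adj. P-value 0.0180) turned to -0.19 (adj. P-value 0.538) without organoid 15. With 1 library per set Dmbt1 was higher by 2.27. Such a sum gives more weight to organoids with more counts, and organoid 15 held 5945252. Values with 1 library per set can thus rest on single organoids. Reg1 was at 35.6 CPM in organoid 13 and 16.0 in organoid 15, and at most 5.89 CPM in the other 10, with a pooled value of 1.83 (adj. P-value 0.0290) that was no longer called without either of them. The list of gut-like and gastric secretory genes went both ways. Of 27 tested, 6 (22.2%) were higher and 5 (18.5%) lower, against 9.8% and 13.6% of all genes, with a median of 0.02. Against each set 1 was called higher and 1 lower.

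The remaining lists are compared with the 9.8% higher and 13.6% lower of all genes. Against Set2 alone these shares were 6.79% and 8.92%, and against Set3 alone 4.75% and 9.86%. Called against each set were 1.78% higher and 3.96% lower. Cytosolic ribosomal proteins had 26 of 82 (31.7%) higher, 56 not called and a median of 0.31, and 19 were called higher against Set2 and 6 against Set3. The pooled count was 66 without Set2 organoids 2 and 6, 48 without organoid 6 alone, 47 and 43 without organoids 2 and 11 of that set, 42 without Set4 organoid 7, and 2 when the 5 left-out organoids were returned. Ribosomal protein genes are short and have many near-identical pseudogenes. Of 77 nuclear genes of oxidative phosphorylation, 9 (11.7%) were higher and 68 not called, with a median of 0.19. YAP pathway genes had 12 of 33 (36.4%) lower, with Areg (-1.63), F3 (-1.36) and Ankrd1 (-1.34) the largest. Of the 33, 13 were called lower against Set3, 4 against Set2 and 3 against each. Hypoxia and glycolysis genes had 8 of 35 (22.9%) lower, 8 against Set2 and 4 against Set3, led by Hif1a (-1.26, SE 0.17, adj. P-value 8.91e-06) and the hexokinase Hk2 (-1.02). Gapdh, in the same list, was higher by 0.39.

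Ductal markers went both ways, with 11 of 46 (23.9%) higher and 5 (10.9%) lower, and 11 were called lower against Set3 but 3 against Set2. Krt19 was higher by 0.37 and Aqp1 by 0.73, and Spp1, which encodes osteopontin, was lower by 0.65. The chloride channel Cftr was called lower, but with medians of 1.77, 9.87 and 2.08 CPM in Set2, Set3 and Set4 this was a difference from Set3 (adj. P-value 0.000854) and not from Set2 (adj. P-value 0.218). For TGF-beta and BMP genes 7 of 28 (25%) were lower, including Inhba (-2.17), and 3 higher, with 3 called lower against Set2 and 10 against Set3. Of 65 mitosis genes 9 (13.8%) were higher and 3 (4.62%) lower, and of 54 replication genes 5 (9.26%) were higher and 2 (3.7%) lower. Among the markers the study followed, Mki67 (-0.22, SE 0.19), Epcam (-0.21, SE 0.18), Sox9 (0.17, SE 0.21), Hnf4a (-0.01, SE 0.12) and Notch2 (-0.02, SE 0.22) were not called, and Fah (-0.66, adj. P-value 0.0280) was lower, called against Set2 and not against Set3. Actb, by which the input of the libraries had been equalised, differed by 0.02 (SE 0.20).

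**Figure D4:**
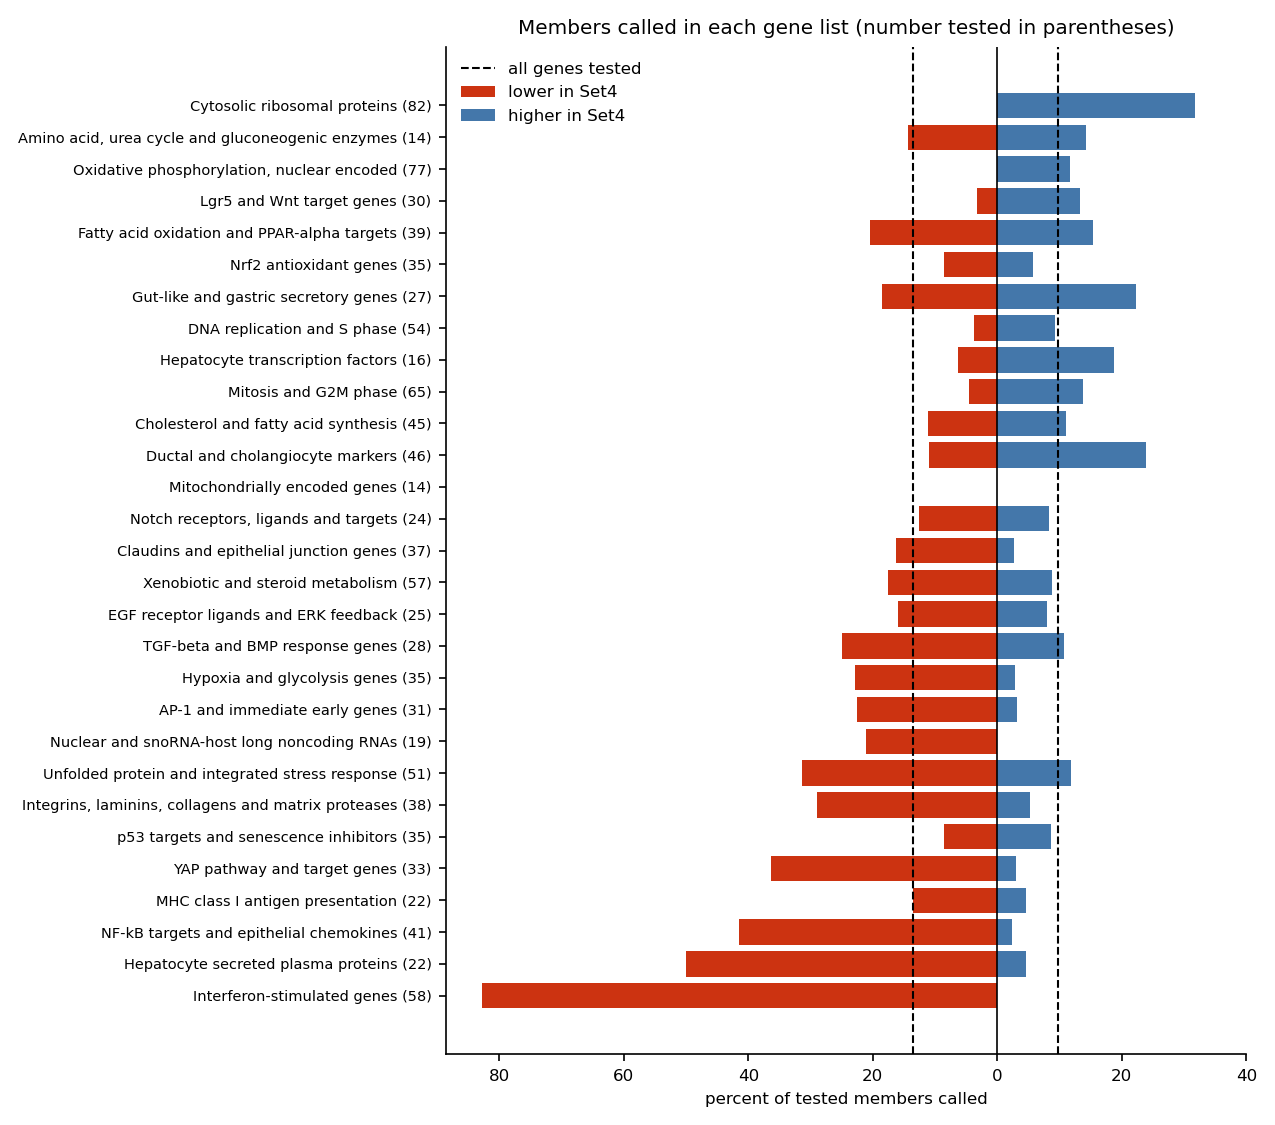
Percent of the tested members of each list that were called lower (red, to the left) or higher (blue, to the right) in Set4, ordered by median log2 fold-change, with dashed lines at the 13.6% and 9.8% of all 12337 genes. Interferon-stimulated genes reach 82.8% on the left and cytosolic ribosomal proteins 31.7% on the right.

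Bulk cultures from the mice of Sets 3 and 4, and of Set1, were sequenced at passages 4 and 11, which puts the mice at equal passage. Whether these were dome or suspension cultures was not stated in the sources read. With 1 culture per set and passage these are values without a test, and 11058 of the tested genes passed the filter in both tables. Bulk Set4 at passage 11 held 1486347 counts, and the other bulk cultures held 3911719 to 5532630. Low values of Set4 at passage 11 therefore rest on few counts. Of the 431 genes called lower against each set in single organoids that were found in bulk, 209 (48.5%) were lower in Set4 than in Set3 at passage 4, as were 5467 of all 11058 genes, and 320 (74.2%) at passage 11, as were 5510 of all. Of the 213 called higher, 111 (52.1%) were higher at passage 4 and 152 (71.4%) at passage 11. Over all genes the direction matched that of single organoids in 48.9% at passage 4 and 55.7% at passage 11.

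Interferon-stimulated genes ran the other way in bulk at passage 4. The median difference of Set4 minus Set3 over 53 genes was -0.61 in single organoids, 0.42 in bulk at passage 4 and -0.60 in bulk at passage 11, with 4 and 42 genes lower in the 2 bulk pairs. Xaf1 was at 49.5 CPM in bulk Set3 and 91.2 in bulk Set4 at passage 4, and at 10.9 and 5.82 CPM at passage 11. Stat2 was at 39.8 and 51.8 CPM and then at 10.4 and 7.12 CPM. In each set most of these genes were lower at passage 11 than at passage 4. The counts were 53 of 53 for Set4 (median -3.08), 51 for Set3 (-1.90) and 47 for Set1 (-0.57). Of all 11058 genes, 5645, 5527 and 5773 were lower at passage 11 in Sets 4, 3 and 1 (medians -0.02, 0.001 and -0.04).

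Secreted plasma proteins kept one direction in all 3 pairs, with medians of -0.94, -0.65 and -0.97 over 15 genes. Gc was at 318 CPM in bulk Set3 and 143 in bulk Set4 at passage 4 and at 146 and 14.9 CPM at passage 11. Cxcl2 was at 638 and 305 CPM and then at 54.7 and 16.2 CPM. Of 40 NF-kB targets and chemokines found in bulk, 26 were lower in Set4 than in Set3 at passage 4 (median -0.095). At passage 11, 33 were lower (median -0.40). Of all 11058 genes, 5467 and 5510 were lower at these passages. Of the 17 NF-kB targets already called lower in single organoids, 13 were lower in bulk at passage 4 and 17 at passage 11. Fbln2, by contrast, was at 7.73 and 9.88 CPM at passage 4 and at 5.17 and 0.647 CPM at passage 11, the last of these resting on few counts. Sulf2 was at 11.8 and 23.6 CPM and then at 37.2 and 55.7 CPM, higher in Set4 both times. Zfpm1 was at 8.51 and 10.9 CPM and then at 10.8 and 51.8 CPM, whereas Cdx2 was at 8.89 and 7.76 CPM and then at 93.1 and 35.6 CPM. Cytosolic ribosomal proteins were higher in single organoids of Set4 (median 0.42) and lower in both bulk pairs (-0.14 and -0.11).

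**Figure D5:**
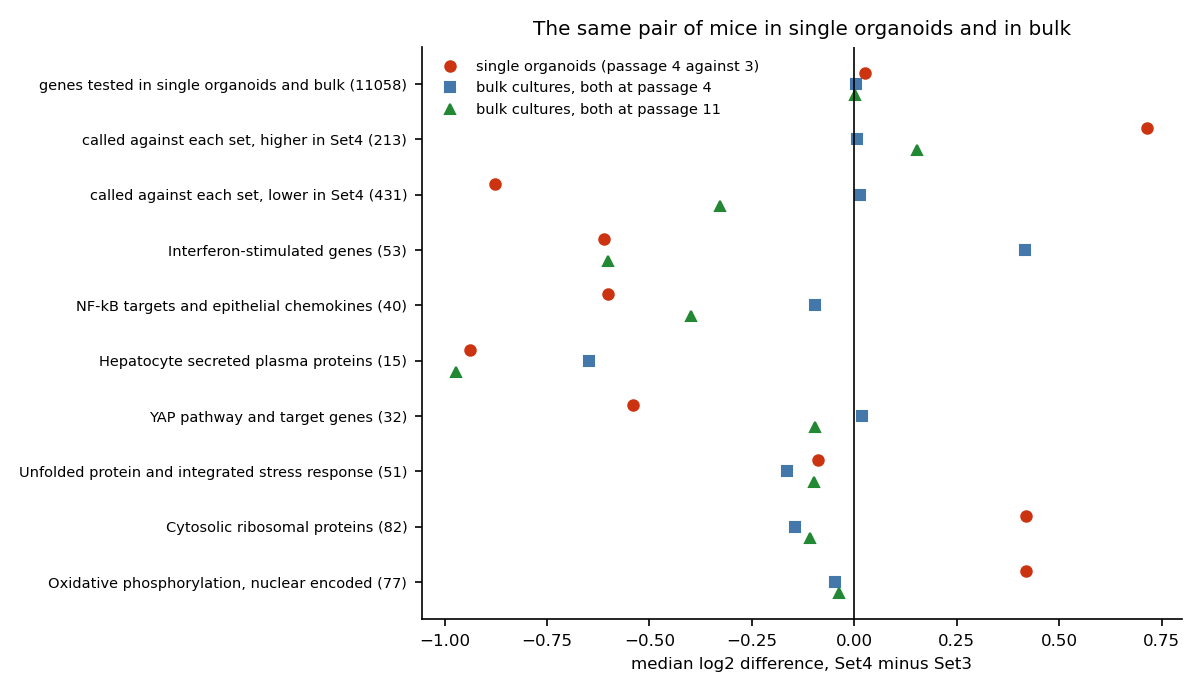
Median log2 difference of Set4 minus Set3 for groups of genes, with the number of genes in parentheses, in single organoids (circles, passage 4 against passage 3), in bulk cultures both at passage 4 (squares) and in bulk cultures both at passage 11 (triangles). Interferon-stimulated genes lie at -0.61, 0.42 and -0.60, and secreted plasma proteins are below zero in all 3.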

How the data were processed

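The measurements were RNA-seq counts of 42 single organoids and of bulk cultures of Sets 1, 3 and 4. The values are whole-number gene counts as deposited by the authors, who made 3′-end libraries with UMIs and processed them with zUMIs, STAR, SAMtools 1.9 and featureCounts on mm10 with Ensembl annotation of GRCm38, with down-sampling within zUMIs. Whether the counts are UMIs or reads, and before or after down-sampling, was not stated in the sources read. Dome and suspension cultures were not analysed here.

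Of 28773 genes, 12337 were kept by filterByExpr (minimum count 3), normalised by TMM and tested in edgeR 4.0.16 (R 4.3.3) by quasi-likelihood F-test without covariates, calling genes at a Benjamini-Hochberg adjusted P-value below 0.05. Set4 was tested against Sets 2 and 3 pooled, then against each in a fit with 1 term per set. SEs were derived from the F statistic. CPM are counts scaled to library size after TMM (not after TMM for cell type markers and list sums), and mean log2 CPM of lists used a prior count of 2. At the smallest total, 1059002 counts, 1 CPM is about 1 count. Bulk technical replicates were summed. Chi-square per degree of freedom between organoids of a set was at least 2.19, above sampling noise.

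The comparison, the 33 gene lists and the rules were chosen with earlier results of these data known. Genes named were the 15 largest and the 5 with the smallest P-value in each direction among genes called pooled and against each set at an average log2 CPM of at least 4, up to 4 called genes per list, the markers the study names, and Actb. Other list members are given with their fold-changes only to describe a count, and Usp18, Grb10, Lss, Gpr137, Pdx1, Egfl7 and Gapdh were named after their values were seen. Gene symbols were found for all but 42 identifiers, positions are from GENCODE for GRCm38, and promoters from RefSeq for GRCm38.p6. Some list members and markers are not reported here. Scripts were tested on simulated data. The alternatives were RLE size factors, no filter, a minimum count of 10, limma-voom (limma 3.58.1), DESeq2 1.42.0, counts thinned to 1059002 per organoid, the organoid number as replicate block, leaving out organoids, all 32 organoids of the 3 sets, equal weight of Sets 2 and 3, all 4 sets in 1 fit, counts summed per set, and library size as a covariate. Leaving out each organoid of Sets 2 and 4 was added after the data were seen.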

Additional observations from a re-analysis of the deposited data

Results flagged for a closer look

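Among 80 groups of 5 or 10 organoids (38 named genes and 2 list means, in Set3 and Set2), 4 held an organoid far from the rest by Dixon's test on log2(CPM + 1), and chance alone marks about 1 in 20. Ifi44 stood at 45.4 CPM in Set3 organoid 3 against 9.41 CPM in the next, a gap of 0.790 of the range. Tspan8 stood at 171 CPM in Set3 organoid 1 against 105 CPM (0.764), and Shf, an adaptor protein, at 27.9 CPM in Set3 organoid 5 against 14.1 CPM (0.724). Gc stood at 572 CPM in Set2 organoid 10 against 223 CPM (0.507).

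For 2 named genes the change against Set2 differed from that against Set3 by the edgeR test of Set2 minus Set3. Oasl2 differed by 1.43 on the log2 scale (adj. P-value 0.0313) and Itga2 by -1.37 (adj. P-value 0.0183), in opposite directions.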

How the results depend on the processing

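Of the alternatives, counts summed per set changed most: the 1209 higher and 1682 lower genes became 15 and 19, the 48 interferon-stimulated, 17 NF-kB and 26 ribosomal genes became 0, 1 and 0, and there was no separate test against each set. Higher and lower calls were 393 and 566 after thinning, 387 and 508 with a replicate block and 562 and 870 with all 32 organoids, and 1903 were higher without Set2 organoids 2 and 6. Calls against each set (220 higher, 489 lower) were 35 and 99, 70 and 161, 66 and 169, and 521 and 988 under the same 4 settings, with 123 higher without a filter and 345 with DESeq2. The NF-kB count was 10 after thinning, and the ribosomal count 9 with the replicate block, 2 with all 32 organoids and 66 without Set2 organoids 2 and 6. Leaving out 1 organoid of any set gave 866 to 1692 higher, 1212 to 2197 lower, 60 to 414 and 227 to 726 against each set, 43 to 50, 15 to 18 and 21 to 48 list members. For Set3 organoids alone, calls against each set ran from 60 to 381 and from 227 to 552. Over 17 pairs of organoids with equal numbers the residual r ran from -0.24 to 0.43 (median 0.09). Whether equal numbers mark a shared source was not stated in the sources read. The block also removes degrees of freedom. Of 144 named genes, 38 lost their call under the block and 39 after thinning, where fewer counts remain, and 120 with summed counts. Leaving out 1 organoid cost 15 of them a call, among them Tjp1, Pcx, Tgfb2 and Eif2s3y. Reversed signs were those of Dmbt1 in DESeq2 (-0.18), with the replicate block (-0.61) and without Set4 organoid 15 (-0.19, the lowest of -0.19 to 1.80 when 1 organoid was left out), and of Reg1 with the replicate block (-1.54). Other causes were not tested. Thinning to 1059002 counts lowers depth and also makes it equal between organoids, and the part of each in the fewer calls was not tested.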
